A study of Mus musculus with 8 samples.

Results

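The GPIb-IX-V complex is the receptor with which platelets and their precursors, the megakaryocytes, hold on to von Willebrand factor. It is built from the products of 4 genes, Gp1ba, Gp1bb, Gp5 and Gp9, whose signal was followed here on 8 one-colour microarrays. The genes were picked from earlier readings of these same arrays, with the genotype difference known, so that difference is given below as a description without a test. The array carried 6 probes for the 4 genes among 55681 non-control probes, 3 of them for Gp1bb. All 6 passed the filter on dim spots (well above background on at least 4 arrays), and the brightest probe of each gene entered a fit over 40247 features, 21532 of them with a gene symbol.

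The study measured RNA from cells enriched with magnetic beads against CD31 (PECAM-1), a surface protein of endothelium that platelets and many leukocytes also carry. One group was 4 Gata2 +9.5 mutant embryos and the other 4 wild type littermates, all at stage E12.5 and on the C57Bl/6J background, with 1 embryo per array. The +9.5 element is an intronic enhancer of Gata2, a transcription factor gene needed for blood stem cell formation. Parents of both groups carried 1 altered copy of the element, and the mutation is present throughout the embryo, not in 1 cell type. Carcasses of both groups were used without fetal liver and brain, and were dispersed with collagenase. Samples 1 and 2 of each genotype came from litter 1 and samples 3 and 4 from litter 2, and each litter had a slide of its own, so litter and slide cannot be told apart. The cells were enriched and not sorted. The spread between arrays of a genotype holds that between single embryos and that between litters with their slides, and its sources were not separated.

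In the complex, GPIb alpha, the product of Gp1ba, binds von Willebrand factor and thrombin at its outer end and is tied by disulfide bonds to GPIb beta, the product of Gp1bb. GPIX, from Gp9, sits beside them and is needed for the complex to reach the surface, while GPV, from Gp5, is more loosely attached and is cut by thrombin. In humans, loss of GPIb alpha, GPIb beta or GPIX causes Bernard-Soulier syndrome, a bleeding disorder with giant platelets. The genes are switched on late in megakaryocyte maturation, and GATA and Ets family factors are known to act on their promoters.

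The promoter sequences are shown because GATA factors are known to act on the promoters of these genes. Whether such a factor has a part in the differences seen here was not tested. The sequences are from RefSeq, build GRCm38.p6, 5′ to 3′ on the gene's strand. Capitals mark the 6-base GATA motifs AGATAA and AGATAG as well as TGATAA and TGATAG on either strand. For Gp9, whose window held no 6-base match, capitals mark the shorter GATAA, which was marked on its own for no other gene. For Gp1ba (chr11:70638872-70639121, plus strand) and Gp5 (chr16:30310782-30311031, minus strand) the 250 bases before the start are given. For Gp1bb (chr16:18622408-18622437, minus strand) and Gp9 (chr6:87778015-87778044, plus strand) 30 bases around the match are given, since their windows lie within an annotated gene span.
Gp1ba: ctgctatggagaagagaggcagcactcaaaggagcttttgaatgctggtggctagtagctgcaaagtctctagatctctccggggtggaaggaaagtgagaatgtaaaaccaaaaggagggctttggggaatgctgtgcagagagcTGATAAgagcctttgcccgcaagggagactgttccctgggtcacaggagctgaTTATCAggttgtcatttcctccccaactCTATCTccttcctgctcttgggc
Gp1bb: gcacctccccgcCTATCAtaagggaacaag
Gp5: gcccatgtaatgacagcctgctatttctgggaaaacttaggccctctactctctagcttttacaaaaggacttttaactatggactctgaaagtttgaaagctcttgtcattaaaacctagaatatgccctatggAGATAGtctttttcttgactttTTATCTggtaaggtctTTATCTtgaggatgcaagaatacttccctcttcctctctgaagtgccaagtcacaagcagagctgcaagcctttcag
Gp9: ctgtctttagggGATAAgccaggctatttt

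The 250 bases held 3 matches of the 6-base GATA motif at Gp1ba, 3 at Gp5, 1 at Gp1bb and 0 at Gp9. The matches of Gp1ba began 104, 51 and 23 bases before the start at their far ends, those of Gp5 115, 93 and 77 bases, and that of Gp1bb 22 bases. Of 32851 promoter windows of the same length, 26.5% held at least 1 match and 6.40% held 2 or more. The shorter GATAA, which overlaps part of these motifs, was found once in the Gp9 window, 43 bases before the start in the promoter table, which lies 1.94 kb inside the annotated span of Gp9. It had 2 matches at Gp1ba, 2 at Gp5 and 0 at Gp1bb, and 22.6% of all windows held it. The Ets-type letters AGGAAG were found once each at Gp1ba, Gp5 and Gp9 and not at Gp1bb, against 29.5% of all windows. These are letter matches and say nothing of whether a factor binds there.

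Before the receptor genes are described, the arrays themselves need a word. Between 74.9% and 92.0% of the non-control spots were well above background, with an array's 75th percentile of signal between 996 and 2481, and log2 values correlated between arrays across features at r = 0.892 to 0.980. The arrays were spread along principal component 1, which held 58.9% of the variance, with wild type 2, wild type 3 and mutant 4 at its upper end (99.8 to 159) and mutants 1 and 2 at its lower end (-128 each). Values are also given without those 3 upper arrays, since earlier results of these data had singled them out. The mean log2 signal of Gata2 was 1.49 ± 0.46 in the wild type group and -0.93 ± 0.53 in the mutant group (SD, n = 4 each), and its probe reads the transcript and not the enhancer. In limma its adjusted p was 0.0858, so it did not pass the threshold of 0.05. Signals are given as log2 relative to the 75th percentile of the same array, and they can be set side by side between arrays for 1 probe but not between probes. The number of arrays limits the precision of each value.

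At the brightest probe of each, all 4 receptor genes were lower in the mutants, by 5.29-fold to 11.2-fold. In each of them the 4 mutant arrays lay below the 4 wild type arrays at that probe. The other probes of Gp1bb were 1.62-fold and 1.40-fold lower, with overlap between the groups. The values that follow here are those of the brightest probes. The median difference of the 4 genes was -2.68 on the log2 scale, beside 0.05 over all features tested. Counted from the lowest difference among 40247 features, Gp9 ranked 12, Gp1ba 24, Gp5 31 and Gp1bb 40. The fit called 2 of the 4, Gp9 and Gp1ba, at limma's adjusted threshold, where 0.0447% of all features were called lower (18 features, with 0 called higher). With litter as the replicate block 0 features were called, these 2 genes included, while the size of the differences stayed the same. A lack of overlap with the mutants below was seen for 4 of 4 genes and for 0.532% of all features. Because these values chose the genes, the counts are printed without being read as evidence.

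Gp1ba encodes the ligand-binding subunit. Its probe A_55_P1981804 lies on the plus strand at chr11:70455461-70455520 (mm9, as the scanner files give it). The wild type arrays 1 to 4 read 0.56, -0.29, 0.51 and 0.40, and the mutant arrays 1 to 4 read -2.53, -1.87, -3.26 and -2.35. Wild type 2 was the lowest of its group and mutant 2 the highest of its own, and the gap between the groups was 1.59. The means were 0.30 ± 0.39 and -2.50 ± 0.58 (SD, n = 4 each), a difference of -2.80 ± 0.39 (SE of the limma fit) or 6.97-fold lower. In litter 1 the difference was -2.34 and in litter 2 it was -3.27. Without the 3 upper arrays it was -3.03.

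Gp9 encodes GPIX, the small subunit needed for surface display. Its probe A_51_P153995 lies on the plus strand at chr6:87729650-87729709 (mm9). In wild type arrays 1 to 4 the signal was 2.55, 1.60, 2.40 and 2.94, and in mutant arrays 1 to 4 it was -1.50, 0.08, -1.38 and -1.65. On the linear scale of the scanner this was an intensity of 4323 to 13075 in wild type and of 403 to 1074 in mutant cells, before scaling. Mutant 2 stood well above the other mutants and still 1.52 below the lowest wild type array. The means were 2.37 ± 0.56 and -1.12 ± 0.80 (SD, n = 4 each), a difference of -3.49 ± 0.46 (SE), or 11.2-fold lower. The difference was -2.79 in litter 1, -4.19 in litter 2 and -3.68 without the 3 upper arrays. Gp9 lies on the same chromosome as Gata2, with 427 kb between their probes (mm9).

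Gp5 encodes GPV, the subunit cut by thrombin. Its probe A_51_P439996 lies on the minus strand at chr16:30308347-30308406 (mm9). Wild type arrays 1 to 4 gave 0.07, -0.37, 0.56 and 1.08, and mutant arrays 1 to 4 gave -2.51, -1.52, -2.83 and -2.02. Wild type 2 was lowest and mutant 2 highest of their groups, as for Gp1ba, and the groups were 1.15 apart. The means were 0.33 ± 0.62 and -2.22 ± 0.57 (SD, n = 4 each), a difference of -2.56 ± 0.43 (SE), or 5.88-fold lower. In litter 1 the difference was -1.87, in litter 2 -3.24, and without the 3 upper arrays -2.86.

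Gp1bb encodes GPIb beta, the disulfide partner of the ligand-binding chain, and it was the only receptor gene with more than 1 probe. The 3 probes all lie on the minus strand of chromosome 16 in mm9 but read different stretches of its transcripts. They are shown because their readings disagree. A_51_P151576 (chr16:18621107-18621166) is annotated in the scanner files to both RefSeq transcript variants, A_55_P2039876 (chr16:18621535-18621594) is annotated to variant 1 and A_55_P2039878 (chr16:18621717-18621776) to variant 2. The first 30 of the 60 bases of each, as deposited by the array files, are as follows.
A_51_P151576: ctggcgctgcgactgccgcctattgccgct
A_55_P2039876: tcaataggcaaagtcttggatcagaggtgg
A_55_P2039878: ttatttctggccaggcggcagaattgtggt

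The whole probes have GC contents of 80.0%, 55.0% and 55.0% in that order. A_51_P151576, the brightest, read -0.49, -1.41, -0.09 and 0.51 in wild type arrays 1 to 4 and -3.85, -2.58, -2.04 and -2.64 in mutant arrays 1 to 4. The groups were 0.63 apart, the narrowest gap of the 4 genes, between wild type 2 and mutant 3. The means were -0.37 ± 0.81 and -2.78 ± 0.76 (SD, n = 4 each), a difference of -2.40 ± 0.50 (SE), or 5.29-fold lower. Litter 1 gave -2.26 and litter 2 gave -2.55. Without the 3 upper arrays the difference was -2.83. A_51_P151576 was the brightest through the wild type arrays, where A_55_P2039876 had a mean of -2.00. In the mutants the mean of A_55_P2039876 was -2.70, slightly above that of A_51_P151576. The choice of A_51_P151576 is thus not independent of the genotype difference.

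A_55_P2039876, of variant 1, read -3.22, -1.95, -0.75 and -2.08 in wild type arrays 1 to 4 and -3.25, -3.39, -2.61 and -1.55 in mutant arrays 1 to 4. The groups overlapped, with mutant 4 above 3 of the wild type arrays, and the difference was -0.70. A_55_P2039878, of variant 2, read -4.17, -3.54, -2.99 and -2.50 in wild type arrays 1 to 4 and -4.60, -4.85, -3.13 and -2.54 in mutant arrays 1 to 4. Again the groups overlapped, the difference was -0.48, and 3 of the 4 mutant arrays were well above background. The mean over the probes in place of the brightest gave -1.19 for Gp1bb. In the authors' deposited table the log2 fold changes of the 3 probes are -2.14, -0.43 and -0.22 in the same order.

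**Figure D1:**
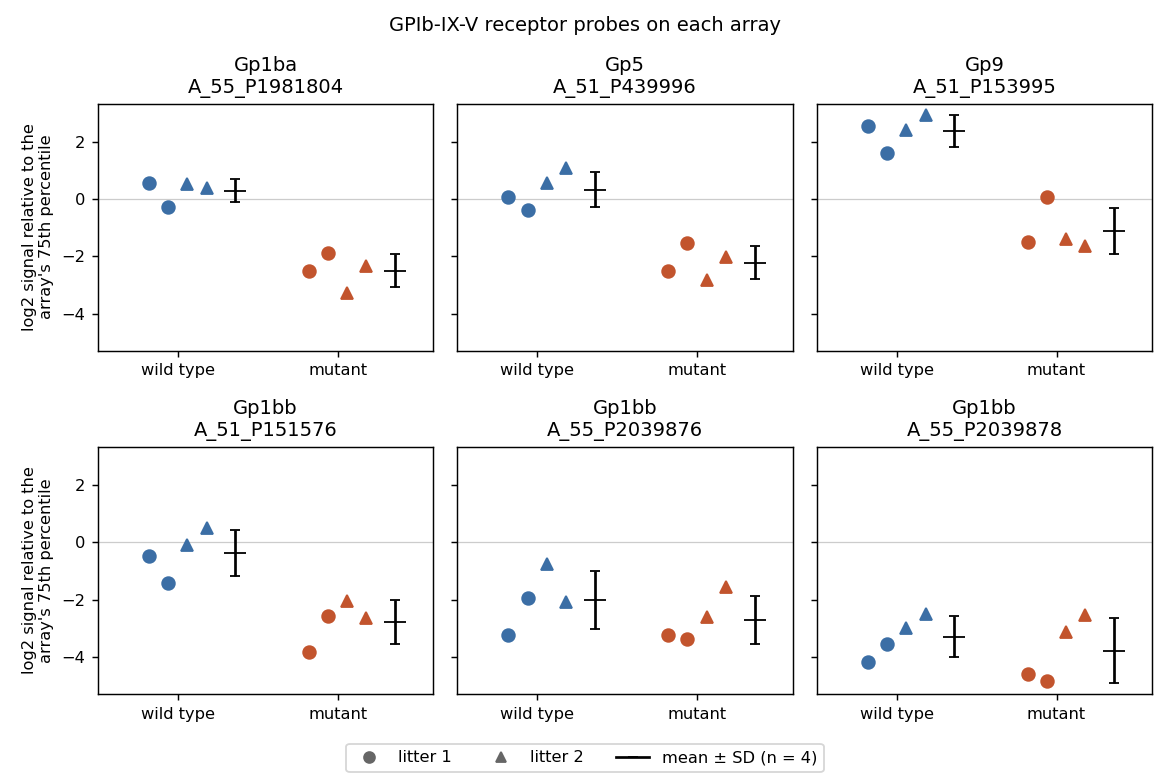
Log2 signal relative to the array's 75th percentile (vertical axis) for the 6 probes of the 4 receptor genes, in wild type and mutant cells; circles are litter 1, triangles litter 2, and bars the mean ± SD of 4 arrays. For Gp1ba, Gp5, Gp9 and the Gp1bb probe A_51_P151576 all mutant points lie under all wild type points, while the points of the other Gp1bb probes overlap.

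The disagreement of the Gp1bb probes was put on 1 scale by subtracting, on each array, the log2 signal of a variant probe from that of A_51_P151576. Set against A_55_P2039876 this difference was 1.63 ± 1.19 in wild type and -0.08 ± 0.91 in mutant cells (SD, n = 4 each), so it moved by -1.70. Set against A_55_P2039878 it was 2.93 ± 0.64 in wild type and 1.00 ± 0.98 in mutant cells, a move of -1.92. Both sets of differences overlapped between the genotypes, since mutant 2 lay above wild type 2 in each. They are a description that rests on the same readings of A_51_P151576 as above and on dim variant probes, and which transcripts each probe reads was not tested.

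Gp1bb lies next to Septin5, a septin gene of neurons and platelets, on the same strand, and in humans transcripts that run from SEPTIN5 into GP1BB are known. In the RefSeq table (GRCm38) the annotated spans of the mouse genes overlap by 593 bases. The Septin5 probe A_55_P2039881 (chr16:18623011-18623070, mm9) lies 1.9 kb from A_51_P151576. It read -0.36, -0.60, 0.45 and 0.04 in wild type arrays 1 to 4 and -0.34, -0.46, -0.03 and -0.09 in mutant arrays 1 to 4. The groups overlapped throughout, with a difference of -0.11 ± 0.34 (SE). In limma its adjusted p was 0.869.

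To see whether other genes around the receptor genes were lower too, all features within 250 kb of a receptor probe were listed on mm9. There were 25 around Gp1ba (8 lower and 17 higher in the mutants), 15 around Gp1bb (6 lower, 9 higher), 18 around Gp5 (10 lower, 8 higher) and 16 around Gp9 (6 lower, 10 higher). In limma 0 of these 74 were called, against 0.0447% of all features called lower. An unadjusted p under 0.05 was reached by 2, Tbx1 and Lrrc15, both higher in the mutants, against 3.05% of all features. All mutant arrays lay below all wild type arrays for 0 of the 74, against 0.532% of all features. With shares this small, counts of 0 among 74 features say little. The lowest difference was -0.96 around Gp1ba, -1.17 around Gp1bb, -0.92 around Gp5 and -0.51 around Gp9. The receptor genes were chosen with their own differences known, so the neighbours are not weighed against them. The nearest named features on either side were Slc25a11 (0.40 ± 0.41) and 4930544D05Rik (-0.57 ± 0.69) at Gp1ba and Atp13a3 (0.26 ± 0.35) and Lrrc15 (1.01 ± 0.38) at Gp5. At Gp9 they were Rab43 (0.36 ± 0.35) and Efcc1 (-0.13 ± 0.33), and at Gp1bb Septin5 and Tbx1 (1.12 ± 0.43), all as difference ± SE.

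**Figure D2:**
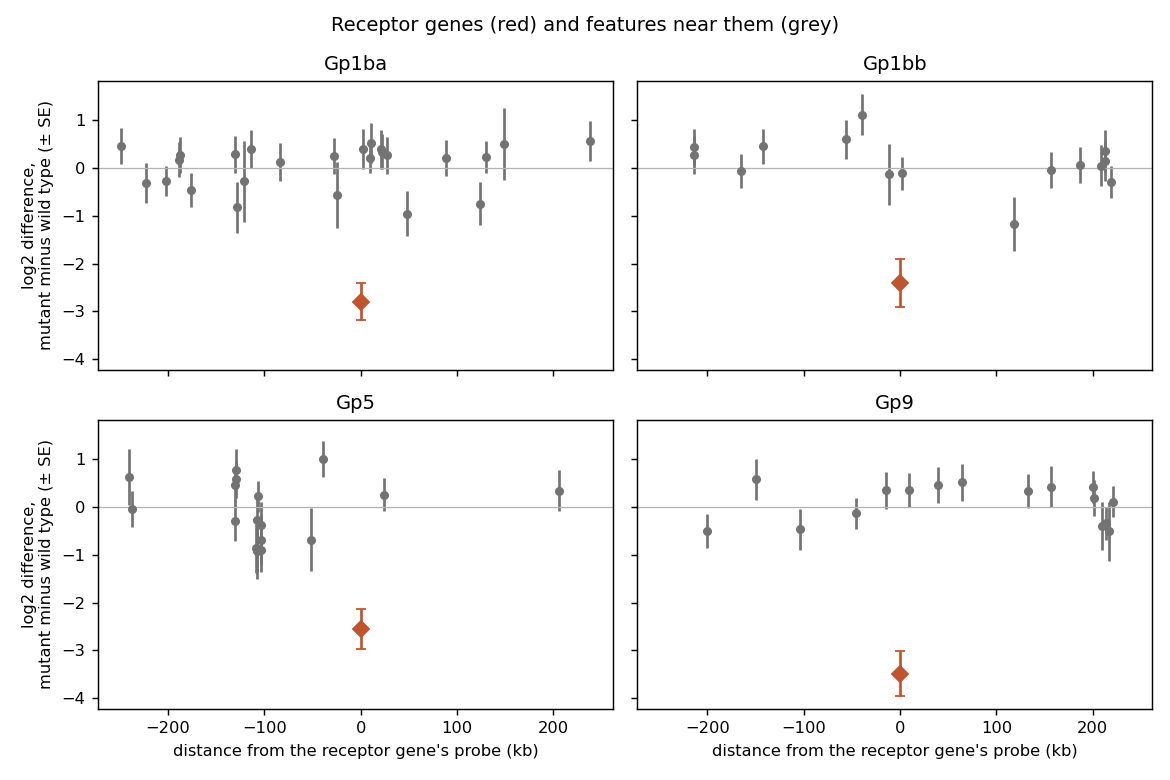
Log2 difference between mutant and wild type cells (vertical axis, ± SE of the limma fit) against distance from the receptor gene's probe in kb (horizontal axis), 1 panel per receptor gene. The receptor genes, in red, lie between -3.49 and -2.40, and the grey features within 250 kb lie between -1.17 and 1.12.

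Litter was examined next, since each litter holds both genotypes equally and the choice of the genes did not use it. In limma with genotype in the model, the difference of litter 2 minus litter 1 was 1.02 ± 0.38 (SE) for Gp1bb, with a 95% confidence interval from 0.16 to 1.88, and its adjusted p was 0.142. For Gp1ba the litter difference was -0.14, for Gp5 0.28 and for Gp9 -0.10, with adjusted p of 0.793, 0.647 and 0.882 in limma. The fit thus called 0 of the 4 genes, against 4.92% of all features called between litters. Gp1bb alone of the 4 had an unadjusted p under 0.05 in limma, as did 10399 of all 40247 features. Nothing particular to Gp1bb is read from it. The 95% intervals still allowed -0.97 to 0.68 for Gp1ba, -0.64 to 1.20 for Gp5 and -1.14 to 0.94 for Gp9.

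With every probe as a feature of its own, a setting added after the data were seen, the Gp1bb variant 2 probe A_55_P2039878 was higher in litter 2 by 1.50 ± 0.31 (SE). In limma its adjusted p was 0.0325, in a fit that called 5.17% of 48099 probes. Both litter 2 arrays of each genotype lay above both litter 1 arrays of that genotype for this probe. The variant 1 probe A_55_P2039876 differed by 1.20 (limma's adjusted p = 0.122) and A_51_P151576 by 1.02 (limma's adjusted p = 0.135), neither past the threshold. With the mean over the probes, Gp1bb as a gene passed, at 1.24 and limma's adjusted p of 0.0290.

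The genotype difference was further from 0 in litter 2 than in litter 1 for all 4 genes. An interaction term tested whether this was more than the spread between arrays of a genotype within a litter. The difference in litter 2 minus that in litter 1 was -1.40 for Gp9 (95% interval -3.37 to 0.57), -1.38 for Gp5 (-3.08 to 0.33), -0.93 for Gp1ba (-2.62 to 0.75) and -0.29 for Gp1bb (-2.16 to 1.59). Limma called 0 of the 4 genes, each with an adjusted p of 1.00, and 0% of all features. At an unadjusted p under 0.05, 491 of 40247 features passed and none of the receptor genes did. Each interval reaches from a difference more than 2 log2 units larger in litter 2 to one that is smaller there, so neither was told apart with 2 embryos per genotype and litter.

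Within a genotype, the receptor genes were compared by how each array departed from its group's mean. Wild type 2 was below the mean for all 4 genes, from -1.04 for Gp1bb to -0.58 for Gp1ba. Wild type 3 was above it for all 4, from 0.03 to 0.28, and wild type 4 likewise, from 0.11 to 0.88. Mutant 2 was the highest mutant array for Gp1ba (0.63), Gp5 (0.70) and Gp9 (1.19), whereas Gp1bb was highest on mutant 3 (0.74), where the other genes were at -0.76 to -0.27.

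**Figure D3:**
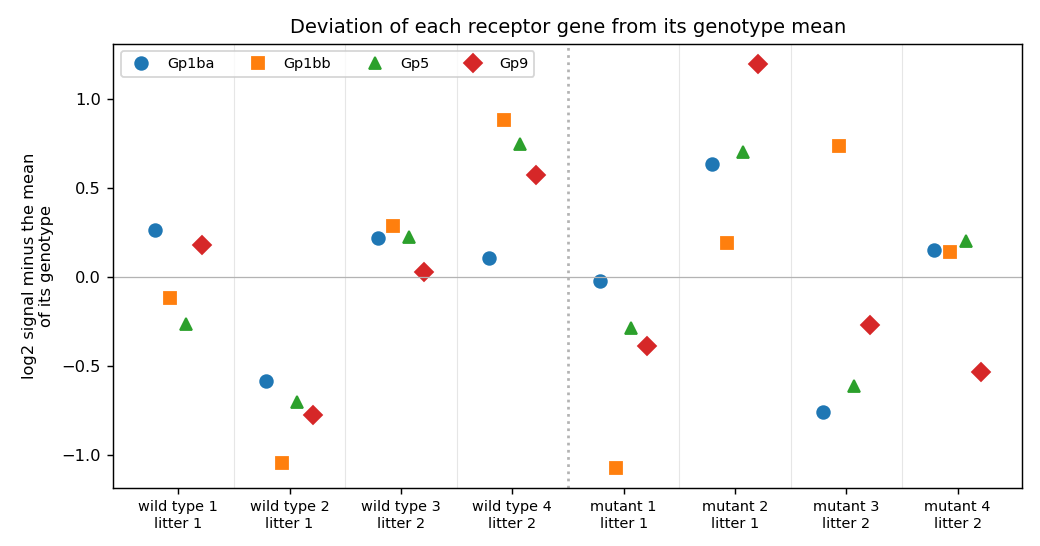
Log2 signal of each receptor gene minus the mean of its genotype (vertical axis) on each of the 8 arrays, with the litter under the array's name; each symbol is 1 gene. Wild type 2 lies under 0 for all 4 genes, and on mutant 3 Gp1bb lies at 0.74 while Gp1ba, Gp5 and Gp9 lie at -0.76 to -0.27.

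Over the 8 arrays the pairs of receptor genes correlated at r = 0.853 (Gp1ba with Gp1bb) to 0.973 (Gp1ba with Gp5), a figure that includes the genotype difference for which the genes were chosen. With the mean of each genotype taken away, r was 0.794 for Gp1ba with Gp5, 0.774 for Gp5 with Gp9 and 0.704 for Gp1ba with Gp9. The pairs with Gp1bb were lower, at 0.533 with Gp5, 0.510 with Gp9 and 0.145 with Gp1ba. These r values describe 8 arrays that share scaling and litter, and they carry no test.

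The genes that work with the receptor were then read from lists of its ligands, cleaving enzymes, inner partners, transcription factors and other platelet genes. These lists were drawn up with earlier results of the arrays known. Counts at an unadjusted p under 0.05 are to be read beside the 3.05% of all features (1227 of 40247) that reached it. Of 51 listed genes 49 were measured, 23 lower and 26 higher in the mutants, with a median difference of 0.08 beside 0.05 over all features. Limma called 1 of them, Treml1, against 0.0447% of all features. All mutant arrays lay below all wild type arrays for 14 of the 49, against 0.532% of all features. With litter as the replicate block limma called 0 of them, and 0 of all 40247 features.

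The receptor's ligands and the plasma proteins that bind or process them gave 0 calls among 9 measured genes in limma (1, Thbs1, at an unadjusted p under 0.05), with a median of 0.17. Vwf, the main ligand and an endothelial product as well as a platelet one, read 5.94, 5.17, 4.98 and 5.85 in wild type arrays 1 to 4 and 5.88, 5.19, 5.01 and 4.27 in mutant arrays 1 to 4. Only mutant 4 lay below all of the wild type arrays, and the difference was -0.40 ± 0.42 (SE; limma's adjusted p = 0.717). Thbs1, the adhesive protein thrombospondin, was at 2.11 ± 0.34 in wild type and 1.14 ± 0.38 in mutant cells (SD, n = 4 each). Its groups did not overlap, but limma's adjusted p was 0.717 and it was not called. Itgam, a leukocyte integrin subunit that binds GPIb alpha, differed by 0.27 ± 0.37, and Kng1, kininogen, by 0.67 ± 1.13 (SE).

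Among the proteases that shed the receptor and the thrombin receptors, 0 of 5 measured genes were called in limma (1, F2rl2, at an unadjusted p under 0.05), with a median of 0.35, and F2rl1 was too dim to enter. Adam17, the main sheddase of GPIb alpha, differed by 0.41 ± 0.38 and Adam10 by 0.35 ± 0.39 (SE). The thrombin receptor gene F2r differed by 0.40 ± 0.43 and F2rl3 by 0.08 ± 0.35 (SE). F2rl2, the thrombin receptor PAR3 that mouse platelets use, was at -2.62 ± 0.41 in wild type and -4.77 ± 1.57 in mutant cells (SD, n = 4 each). Its groups did not overlap, 3 of 4 mutant arrays were well above background, and limma's adjusted p was 0.717.

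The inner partners that link the receptor tails to the cytoskeleton and to signalling gave 0 calls among 9 measured genes in limma (0 at an unadjusted p under 0.05 as well), with a median of 0.24 and 8 of 9 higher. Flna, the filamin that anchors GPIb alpha, differed by 0.38 ± 0.38 and Rap1b, a small GTPase of integrin activation, by 0.17 ± 0.39 (SE). Ywhae, a 14-3-3 protein, differed by 0.57 ± 0.39 and Tln1, the integrin activator talin, by 0.14 ± 0.39 (SE). The mutant and wild type arrays overlapped for all 9 genes.

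Of the transcription factors of megakaryocytes, 0 of 9 were called in limma (1, Gata1, at an unadjusted p under 0.05), with a median of 0.09. Fli1, the Ets factor of megakaryocytes, read 3.52, 2.61, 1.98 and 2.53 in wild type arrays 1 to 4 and 3.17, 3.06, 2.39 and 2.12 in mutant arrays 1 to 4. These groups overlapped throughout, at a difference of 0.03 ± 0.42 (SE). Gata1, the GATA factor of maturing megakaryocytes and red cells, was at 0.86 ± 0.47 in wild type and -0.90 ± 0.63 in mutant cells (SD, n = 4 each), and its groups did not overlap. Limma's adjusted p was 0.717 for Gata1, so it did not pass. The other 2 lower members were Nfe2, a factor of megakaryocyte maturation, at -1.01 ± 0.58, and Runx1 at -0.42 ± 0.46 (SE). Zfpm1, which encodes the GATA1 partner FOG1, differed by 0.16 ± 0.38, and Lmo2 by 0.62 ± 0.46, Ets1 by 0.09 ± 0.48 and Tal1 by 0.53 ± 0.35 (SE).

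The other platelet and megakaryocyte genes had a median difference of -2.10 over 17 measured genes, 14 lower and 3 higher. In limma 1 was called, against 0.0447% of all features called lower, and 11 had an unadjusted p under 0.05, against 3.05%. In 11 the mutants lay below without overlap between the groups, against 0.532% of all features. Treml1, a receptor stored in platelet alpha granules, read 3.99, 3.04, 3.89 and 4.01 in wild type arrays 1 to 4 and -0.45, 1.12, -0.34 and -0.18 in mutant arrays 1 to 4. Wild type 2 was again the lowest of its group and mutant 2 the highest. Treml1 fell by 3.70 ± 0.43 (SE, limma's adjusted p = 0.0231), and its adjusted p was 0.0531 with litter as the replicate block and 0.758 without the 3 upper arrays. Over 19 alternatives the adjusted p of Treml1 in limma ran from 1.06e-06 to 0.758 and 10 passed. The lowest came with the authors' deposited values, where the fit gave all 4 receptor genes the same SE of 0.548.

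Pf4, a chemokine of the alpha granules, differed by -2.75 ± 0.42, Ppbp, another, by -3.30 ± 0.49, and Itgb3 and Itga2b, the fibrinogen receptor pair, by -3.44 ± 0.52 and -2.45 ± 0.41 (SE). None of these passed limma's adjusted threshold. Mmrn1 (0.43 ± 0.47), Cd9 (0.13 ± 0.45) and Pear1 (0.25 ± 0.40), which endothelium also expresses, were the 3 that were higher, and their groups overlapped. Clec1b, the podoplanin receptor of platelets, differed by -1.39 ± 0.45 without overlap.

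**Figure D4:**
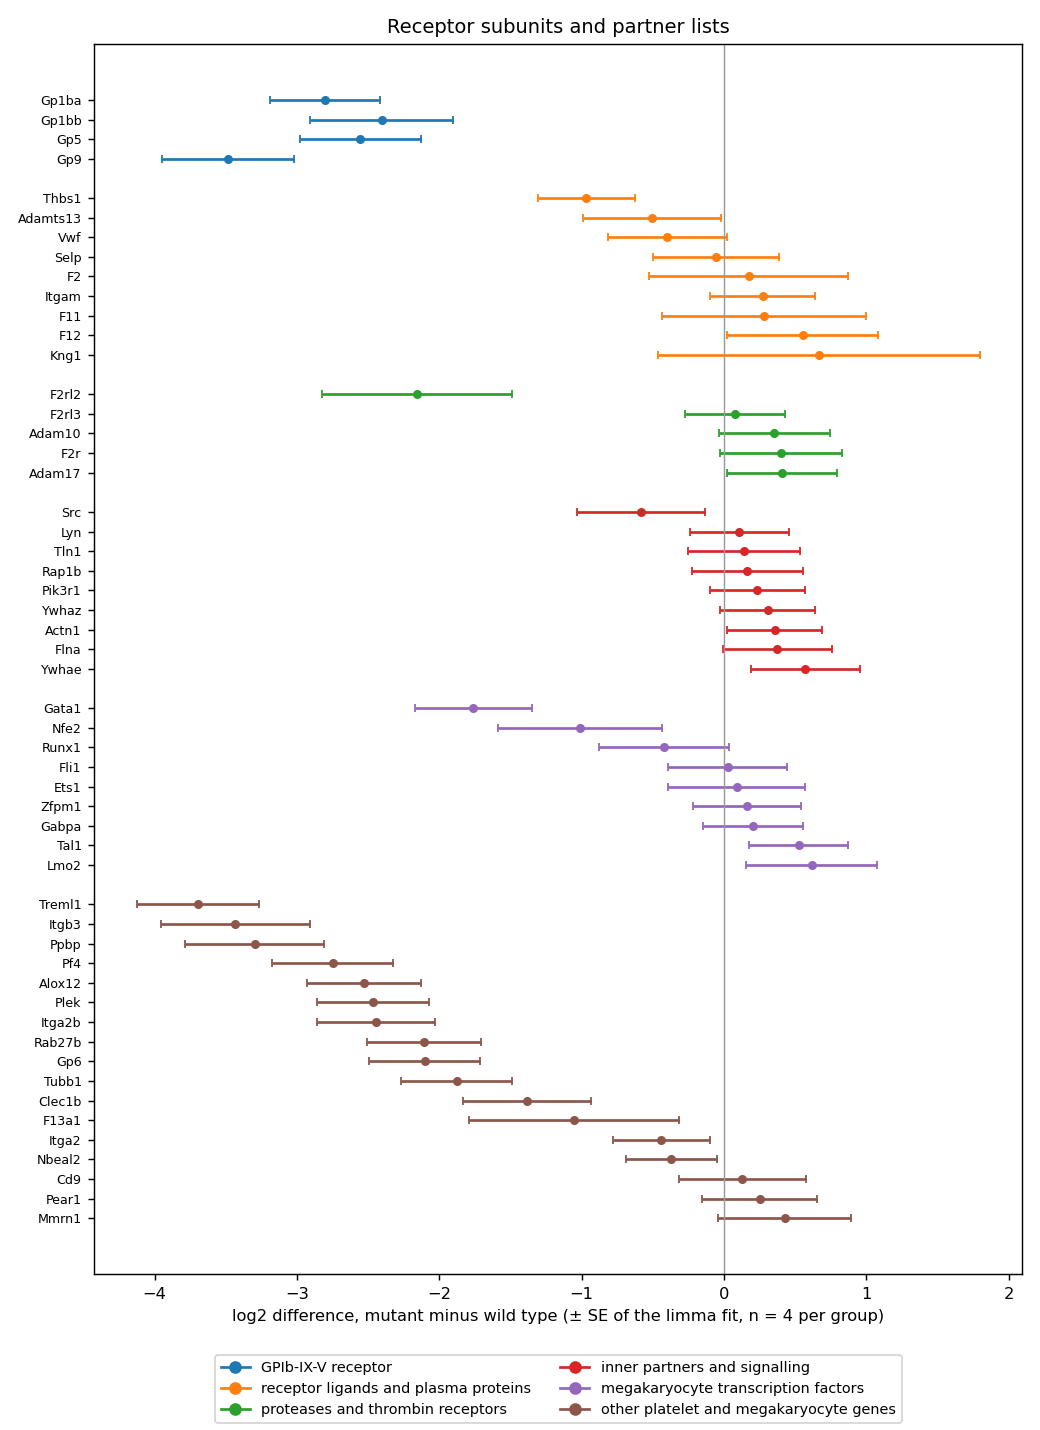
Log2 difference between mutant and wild type cells (horizontal axis, point ± SE of the limma fit, 4 arrays per group) for the 4 receptor genes and 49 measured genes of the partner lists, coloured by list. The receptor genes lie between -3.49 and -2.40 beside platelet genes such as Treml1 at -3.70, while Vwf lies at -0.40 and Flna at 0.38.

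Markers of the cell types that a CD31 enrichment can hold were summed on each array as linear signal relative to the 75th percentile. The 12 endothelial markers summed to 298 to 952 in wild type and 354 to 888 in mutant cells, and all 12 were well above background on every array. The 8 megakaryocyte and platelet markers, which leave out the receptor genes, summed to 51.4 to 100.1 in wild type and 11.2 to 20.6 in mutant cells. All 8 were well above background on every array, and in all 8 the mutants lay below without overlap (0.532% of all features). They are Pf4, Ppbp, Itga2b, Itgb3, Treml1, Gp6, Clec1b and Tubb1. All are also in the list of other platelet genes above, so they are not a separate reading. Of the 17 measured genes of that list 11 were without overlap, and Mmrn1, Cd9 and Pear1 were higher. The 8 leukocyte markers summed to 30.5 to 41.5 in wild type and 23.9 to 32.7 in mutant cells. Their median on an array was 1.26 to 2.14 and -0.17 to 1.28 on the log2 scale, and 7 of the 8 were lower in the mutants, with a median difference of -0.87. Limma called 0 of the leukocyte markers, against 0.0447% of all features called lower. An unadjusted p under 0.05 was reached by 3, Cd52 (-1.41 ± 0.44), Vav1 (-1.20 ± 0.43) and Coro1a (-0.78 ± 0.35), against 3.05% of all features. Lcp1, the brightest in the sum, differed by 0.33 ± 0.39 (SE). The sums were 327 to 2009 in wild type and 710 to 1968 in mutant cells for the 8 red cell markers, and 0.716 to 9.36 and 0.957 to 69.2 for the 4 liver markers. By litter, the red cell sums were 327 to 723 in litter 1 and 1032 to 2009 in litter 2. The liver sums were 0.716 to 1.71 in litter 1 and 3.71 to 69.2 in litter 2, highest on mutants 3 and 4 (25.2 and 69.2). None of these markers was at 0. Both the platelet markers and most leukocyte markers were lower together with the receptor genes, and their part in the result was not tested. In RNA of a mixed population, fewer megakaryocytes and platelets and less receptor RNA in each of them cannot be told apart.

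The genes whose signal over the 8 arrays was most like the mean of the 4 receptor genes were ranked by Pearson's r among 21201 named features. They were Tmem40 (0.994), AI661384 (0.993), Treml1 (0.992), Rgs18 (0.991), Plac8 (0.989), Pf4 (0.988), Slpi (0.988) and Stfa1 (0.987). This ranking includes the genotype difference for which the receptor genes were chosen. These 8 genes were themselves lower in the mutants, from -5.58 for Stfa1 to -2.32 for Tmem40. After the mean of each genotype was taken away, the order was Aldh8a1 (0.979), Cd69 (0.945), Tmem40 (0.937), Ttc7 (0.931), AI790276 (0.927), Pianp (0.926), H2al1m (0.924) and AI661384 (0.924). In this second order Cd69, AI790276, Pianp and H2al1m were dim, with wild type means of -2.52, -3.13, -4.07 and -3.10. The means of the others lay between -0.58 and 1.91. Tmem40 and AI661384 stood among the 8 highest by both measures, and r over 8 arrays is given as a description. Each r was picked as among the highest of 21201, so nothing is read from its height.

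**Figure D5:**
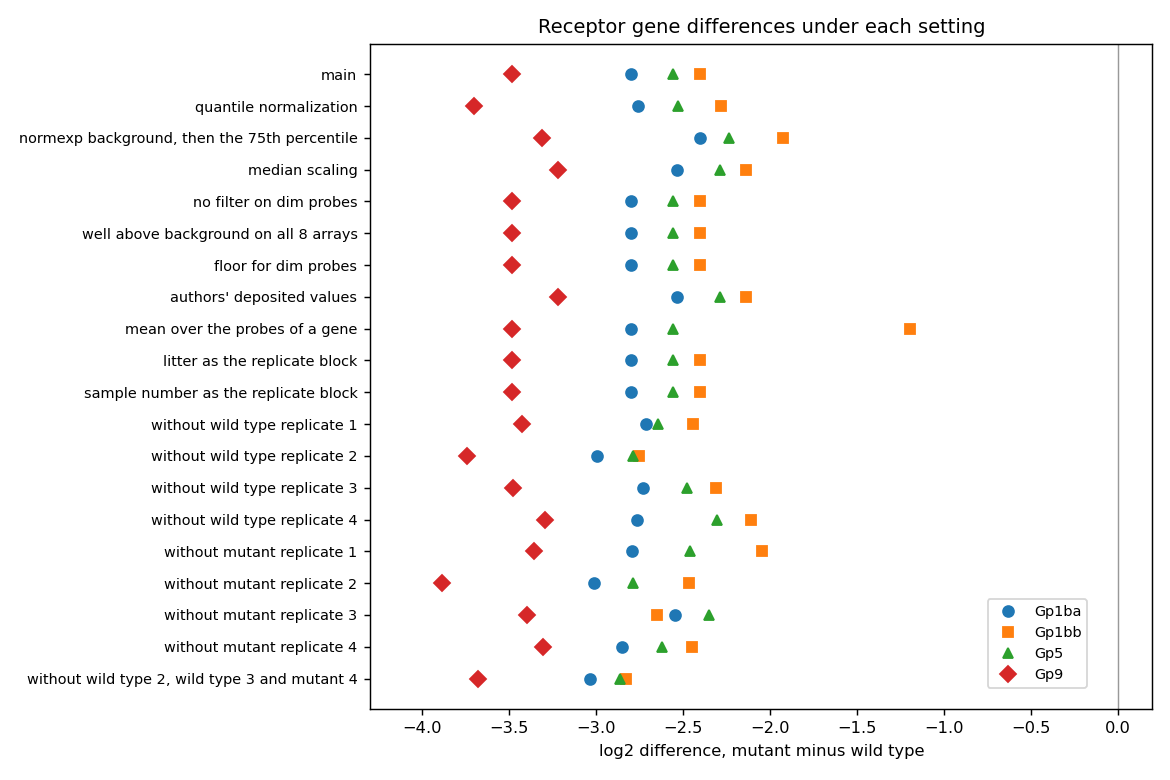
Log2 difference between mutant and wild type cells (horizontal axis) of each receptor gene under the reported setting and each alternative (vertical axis), 1 symbol per gene. Gp9 lies lowest throughout, at -3.88 to -3.22, and the mean over the probes sets Gp1bb apart at -1.19.

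The receptor genes kept their sign under 19 other settings. Gp1ba ran from -3.03 to -2.40, Gp5 from -2.86 to -2.24, Gp9 from -3.88 to -3.22 and Gp1bb from -2.83 to -1.19. The authors' deposited table gives log2 fold changes of -2.54 for Gp1ba, -2.29 for Gp5 and -3.22 for Gp9. That table is centred on the median of each array. All features have a median difference of 0.40 with the authors' deposited values, beside 0.05 as reported here. Median scaling of the scanner values gave 0.32.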

How the data were processed

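RNA of CD31-enriched cells from 8 embryos was hybridised to one-colour Agilent arrays, 4 wild type and 4 Gata2 +9.5 mutant. The deposited scanner files hold a linear intensity per spot from Agilent Feature Extraction 10.7.3.1 with mm9 annotation, per the file headers, with background subtracted and no normalization between arrays. The authors' deposited table of log2 values, for which the submitters' processing notes name limma without a version, served as an alternative.

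The processed intensity was put on the log2 scale and the 75th percentile of the array's non-control spots was subtracted. Spots that the scanner software marked as outliers (130 to 521 per array) were dropped, and repeated spots were averaged. Features were kept when well above background on at least 4 arrays, with a gene represented by its brightest probe. RefSeq accessions named 26762 probes and symbols or synonyms 4458, while 1711 kept the file's name and 22750 had none. The genotype, litter and interaction terms were estimated in limma 3.58.1 under R 4.3.3 with lmFit and eBayes. The reported genotype fit held genotype alone, so its SE and adjusted p values take no account of litter. The litter term was estimated with genotype in the model. With litter added to the genotype fit as the replicate block, 0 features were called, against 18 without it. Tests were two-sided, with Benjamini-Hochberg adjustment over the whole table and a threshold of 0.05, and the script was first tested on simulated data. Promoters came from RefSeq (GRCm38.p6), with 4 of 4 genes matched, and no coordinates were converted between builds.

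The receptor genes and all lists were chosen with earlier results of these data known, and 2 listed genes are not reported here. The naming rule takes every receptor probe, Gata2, Septin5, the called and the 4 brightest genes of each partner list, the nearest named neighbour on each side and the 8 genes most like the receptor mean. F2rl2, Fli1, Gata1, Nfe2, Runx1, Cd52, Vav1, Coro1a, Lcp1, Ppbp, Itgb3, Itga2b and Pear1 fall outside it and were picked with their values in view. The labels place same-numbered samples in a shared litter, so litter is the block that the design gives. It entered the genotype fit only as an alternative. Deviations of mutant and wild type arrays of the same number correlated at 0.62, -0.03, -0.09 and -0.16. The closing section gives the alternatives.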

Additional observations from a re-analysis of the deposited data

Results flagged for a closer look

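For Gp9, mutant 2 read 0.0772 on the log2 scale, and the other 3 mutant arrays read -1.65 to -1.38. Its gap to the nearest of them was 0.846 of the group's range, above Dixon's 95% critical value for 4 samples, which chance passes in about 1 of 20 groups. Without mutant 2 the Gp9 difference was -3.88.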

How the results depend on the processing

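The median difference of the 4 receptor genes was -2.68 and ran from -2.95 to -2.32 over 19 alternatives (-2.90 to -2.54 with single arrays left out), and no receptor gene changed sign. The count of all features called by genotype, 18 as reported, was 1 with quantile normalization, 39 with normexp background correction, 8 with no filter, 30 with a floor for dim probes and 52 with the authors' deposited values (40 lower, 12 higher, or 76.9% lower). It was 0 with litter as the replicate block (1954 at an unadjusted p under 0.05), 0 with sample number as the block (1385) and 0 without wild type 2, wild type 3 and mutant 4 (2202). It ran from 0 to 24 with single arrays left out, at 0 without wild type 1, 3 or 4 or mutant 1 or 3 and at 6 without wild type 2. The count of partner genes called, 1 as reported, was 0 with quantile normalization, 9 with normexp, 7 when all 8 arrays had to be well above background, 6 with the floor, 7 with the authors' values, 2 with the mean over probes, 0 with either block and 0 without the 3 arrays named, and ran from 0 to 3 with single arrays left out. The count of receptor genes called between litters, 0 as reported, was 1 with the mean over probes and 1 with every probe as a feature, and the count called for the interaction was 0 under all 18 alternatives. Median scaling moved the median difference of all features from 0.05 to 0.32. With the authors' deposited values the fit gave each of the 4 receptor genes the same SE, 0.548, so its adjusted p and its counts differ in kind from the others. The cause of the changes in this section was not tested. Signal over background limits the variant 2 probe of Gp1bb, and 4 arrays per group limit all of the tests.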
